A study of Mus musculus with 45 samples.

Results

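Foreign body giant cells form when macrophages that cannot engulf an implant fuse with each other on its surface. The 10 genes described here belong to that programme or to the lysosome-rich and lipid-laden states that macrophages take up around foreign material: Dcstamp and Ocstamp, multi-pass membrane proteins that macrophages and osteoclast precursors need to fuse, Atp6v0d2, a subunit of the vacuolar proton pump that acidifies lysosomes and also takes part in fusion, Acp5 (tartrate-resistant acid phosphatase), Ctsk (cathepsin K, a collagen-degrading protease), Trem2, a receptor for lipids, Tyrobp, the adaptor through which Trem2 signals, Gpnmb, a glycoprotein of the lysosomal and cell membrane, Cd9, a tetraspanin, and Fabp5, a fatty acid carrier. They were chosen by name, as 10 of the 55367 gene symbols in the count table, and with earlier results of these data known. Every one of the 10 was counted often enough to be tested. The counts hold no measure of fusion itself, so the genes are described here by their transcripts alone.

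RNA was sequenced from 45 samples in 15 groups of 3. Female Balb/c mice, 7 to 8 weeks old, received porous polycaprolactone scaffolds under the skin, and 2 weeks later 67NR, 4T07 or 4T1 cells, 3 mouse mammary carcinoma lines, were placed in a mammary fat pad, while control mice stayed healthy and had no tumor. Scaffolds, lungs and spleens of the control mice and of the mice with each line, and the primary tumors of the 3 lines, were taken on day 14, and all mice, controls included, carried scaffolds. The labels do not say which scaffold, lung, spleen and tumor came from the same mouse, so the libraries were treated as independent. The scaffold is a tissue that grew into an implant and holds many cell types, and in bulk RNA more cells of a type and more RNA per cell cannot be told apart.

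Library totals ranged from 3491890 to 8175380 counts, and levels are given in CPM, the counts in each 1000000 of a library's total. A level of 3 counts, which is 0.367 to 0.859 CPM depending on the library, was used as the limit of detection. Differences are log2 values from edgeR. Their standard errors are approximate, taken as the size of the difference over the square root of its F value. A difference passed the test between tissues at an adjusted p under 0.05 and a fold over 2. The labelled tissues were checked by marker genes. The summed level of 8 macrophage markers was 2938 to 3715 CPM in scaffolds, 323 to 901 CPM in lungs, 789 to 2191 CPM in spleens and 1674 to 2665 CPM in tumors, with none of the 8 at 0 in any tissue. Every spleen library had more red pulp macrophage markers (1079 to 2466 CPM) than any library of another tissue, though 4T07 lungs came near at 800 to 1018 CPM. B cell markers were at 146 to 804 CPM in spleens. For these the 4T07 lungs, at 271 to 350 CPM, were above the 4T1 spleens, at 146 to 249 CPM. The alveolar macrophage markers did not set lungs apart, at 149 to 390 CPM in lungs and 228 to 509 CPM in spleens. The 5 markers of bone-forming cells together reached 0.158 to 1.86 CPM in scaffolds, so the bone enzymes among the 10 genes were counted where bone itself was close to absent.

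Promoter sequences from RefSeq on GRCm38.p6, 250 bases before to 50 bases after each transcription start, were at hand for 5 of the 10 genes, and all 5 are shown because their genes were higher together in the scaffold. Of the 3 starts of Acp5, the one shown was chosen because it held a match. Atp6v0d1, the widely expressed sister of Atp6v0d2, is shown beside them because its difference was smaller. Capitals mark matches, on either strand, to TCACNTG (an E-box read by the MITF and TFE factors of lysosomal genes), TGANTCA (an AP-1 site) and GAGGAA (the core of a PU.1 site). Bases are counted from the start, with 1 the base at the start and -1 the base before it.
Gpnmb, chr6:49036268-49036567, plus strand: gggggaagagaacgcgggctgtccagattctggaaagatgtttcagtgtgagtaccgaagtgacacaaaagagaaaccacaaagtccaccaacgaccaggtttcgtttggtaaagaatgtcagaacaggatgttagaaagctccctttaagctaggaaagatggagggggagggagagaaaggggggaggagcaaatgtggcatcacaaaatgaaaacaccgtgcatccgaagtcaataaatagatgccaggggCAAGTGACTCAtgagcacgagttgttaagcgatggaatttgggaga
Acp5, the third of its starts, chr9:22130549-22130848, minus strand: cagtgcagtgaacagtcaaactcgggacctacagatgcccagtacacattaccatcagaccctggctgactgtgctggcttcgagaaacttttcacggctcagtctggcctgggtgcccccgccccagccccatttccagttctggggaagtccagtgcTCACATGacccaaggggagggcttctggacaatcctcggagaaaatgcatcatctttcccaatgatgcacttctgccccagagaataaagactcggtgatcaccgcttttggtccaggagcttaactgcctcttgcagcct
Ctsk, chr3:95498960-95499259, plus strand: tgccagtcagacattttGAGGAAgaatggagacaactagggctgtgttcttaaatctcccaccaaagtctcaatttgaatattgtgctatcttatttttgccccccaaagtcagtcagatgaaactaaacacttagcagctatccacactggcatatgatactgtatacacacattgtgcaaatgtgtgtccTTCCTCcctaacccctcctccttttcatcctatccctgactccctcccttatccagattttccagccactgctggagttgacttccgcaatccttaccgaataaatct
Trem2, chr17:48346151-48346450, plus strand: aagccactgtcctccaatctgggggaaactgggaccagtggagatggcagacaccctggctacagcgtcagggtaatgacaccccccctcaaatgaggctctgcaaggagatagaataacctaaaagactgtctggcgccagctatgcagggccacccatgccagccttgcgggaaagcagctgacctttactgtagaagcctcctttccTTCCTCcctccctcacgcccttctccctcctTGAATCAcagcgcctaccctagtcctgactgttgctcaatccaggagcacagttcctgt
Cd9, chr6:125494711-125495010, minus strand: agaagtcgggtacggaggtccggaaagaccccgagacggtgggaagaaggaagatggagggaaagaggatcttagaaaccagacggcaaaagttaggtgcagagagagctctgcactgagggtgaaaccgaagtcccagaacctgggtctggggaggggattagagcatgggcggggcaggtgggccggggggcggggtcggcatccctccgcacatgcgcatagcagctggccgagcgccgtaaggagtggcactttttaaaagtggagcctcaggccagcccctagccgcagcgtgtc
Atp6v0d1, chr8:105566015-105566314, minus strand: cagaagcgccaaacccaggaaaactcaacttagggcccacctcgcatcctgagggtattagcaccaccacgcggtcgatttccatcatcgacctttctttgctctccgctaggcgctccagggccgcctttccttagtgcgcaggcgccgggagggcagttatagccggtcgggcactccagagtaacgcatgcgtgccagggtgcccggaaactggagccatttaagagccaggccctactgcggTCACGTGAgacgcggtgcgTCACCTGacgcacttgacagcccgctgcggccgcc
In Gpnmb the E-box letters, from base 5 and on the opposite strand, and the AP-1 letters, from base 9, share bases. Acp5 had an E-box match from base -91, and Atp6v0d1 had matches from bases -4, -3 and 16, the pair near the start being the same letters read on both strands. Ctsk had the PU.1 core from bases -233 and -58, and Trem2 had it from base -40 with an AP-1 match from base -9. Of all 32851 mouse promoters of this length, 16.6% held the E-box letters, 7.81% the AP-1 letters and 28.3% the PU.1 core, so each match alone is common. The promoter of Cd9 and the other starts of Acp5 held none of the 3 sets of letters in this window.

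All 10 genes were higher in scaffolds than in lungs and in spleens, and the 12 scaffold libraries lay above every lung and spleen library for each gene. Together the 10 genes made up 1.22% to 1.67% of all counts in a scaffold library, against 0.0378% to 0.0674% in lungs, 0.028% to 0.0725% in spleens and 0.0555% to 0.0924% in primary tumors. Against lungs, 10 of the 10 passed the test and all were higher, where 31.1% of the 27656 genes tested passed in either direction and 16.1% were higher in scaffolds. Against spleens, 10 of 10 were again higher, beside 18.4% of all genes and 33.6% that passed in either direction. Against primary tumors, 10 of 10 were higher, beside 14.6% of all genes and 25.4% in either direction, and the libraries did not overlap for 9 of the 10. How many of all genes had libraries that did not overlap was not counted for lungs, spleens or tumors. The lack of overlap is therefore a description of levels, not a trait particular to the 10 genes. The median log2 difference of the 10 genes was 5.42 against lungs, 6.29 against spleens and 4.16 against tumors, while the median over all genes tested was 0.07, 0.10 and 0.13. These comparisons share the scaffold libraries, so they are not separate evidence for a scaffold level.

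**Figure D1:**
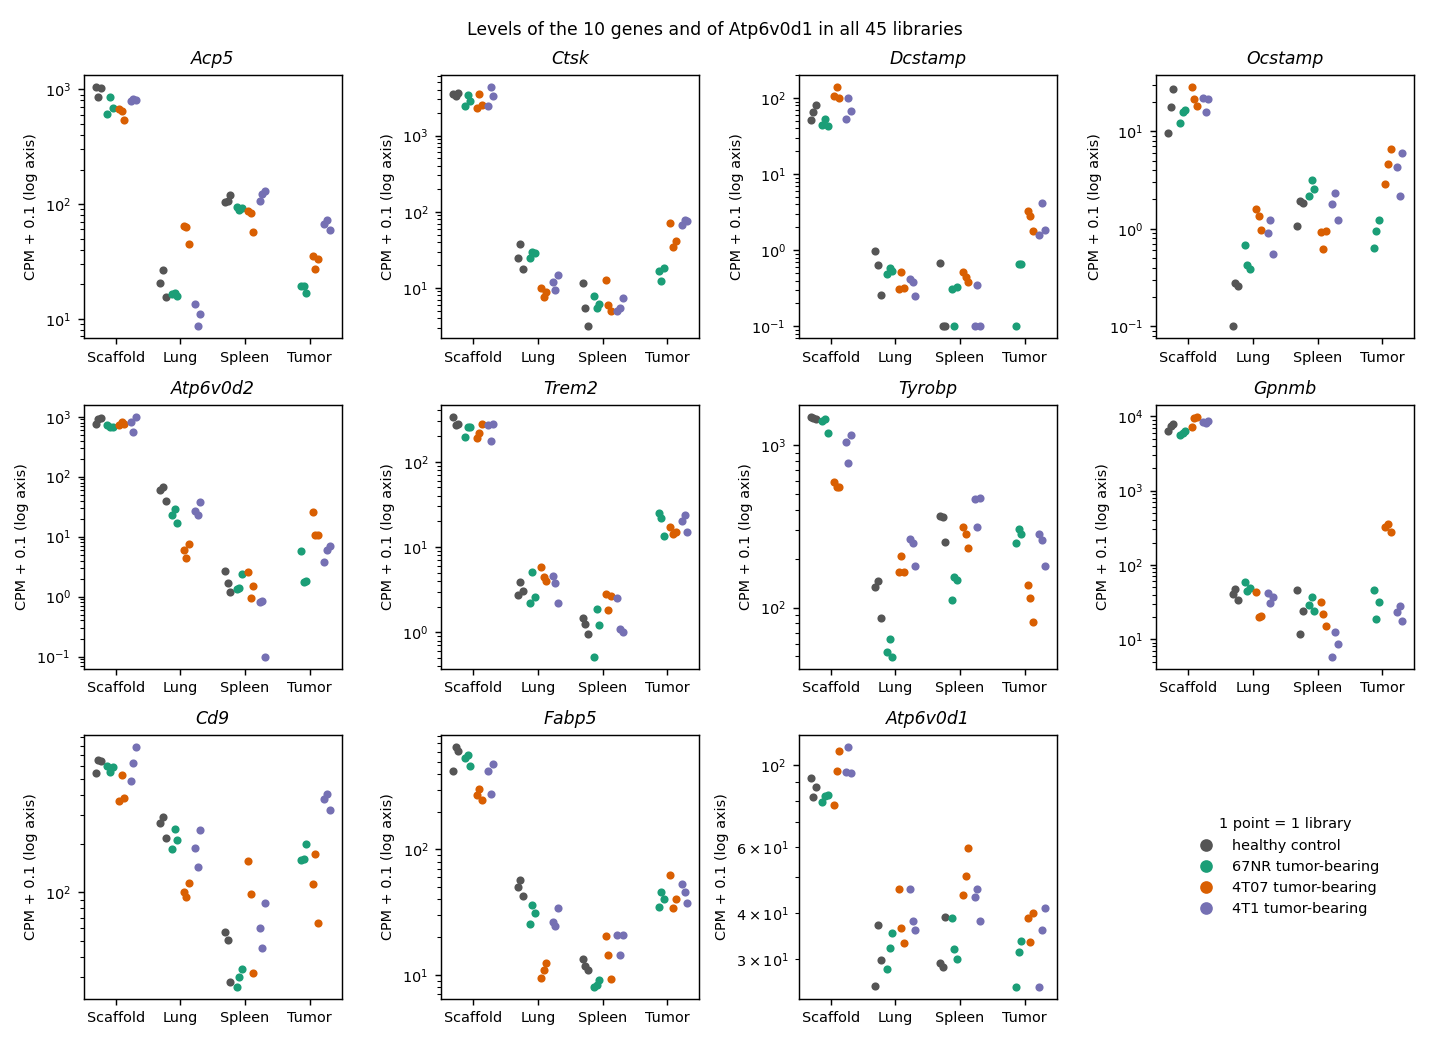
Level of each of the 10 genes and of Atp6v0d1 in every library, as CPM plus 0.1 on a log axis, by tissue and tumor line, with 1 point per library and libraries without a count at 0.1. The 12 scaffold points stand above all lung and spleen points in every panel, and Cd9 is the gene whose scaffold points overlap those of tumors.

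Among the fusion genes, Dcstamp was counted at 43.4 CPM in the lowest scaffold, 66.4 CPM in the median scaffold and 142 CPM in the highest. In lungs it was at 0.15 to 0.872 CPM with 26 counts in all 12 libraries, in spleens at 0 to 0.583 CPM with 11 counts, and in tumors at 0 to 4.1 CPM with 77 counts. The gene was thus at or near the limit of detection in lungs and spleens, so its counts were pooled over libraries. The pooled rate in scaffolds was 205 times that in lungs (95% exact Poisson interval 140.0 to 315), 375 times that in spleens (209.7 to 753) and, among tumor-bearing mice, 41.1 times that in tumors (32.8 to 52.1), with intervals that cover counting error only.

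Ocstamp was the least counted of the 10 genes in scaffolds, at 9.44, 17.9 and 28.6 CPM in the lowest, median and highest library. Lungs had 0 to 1.48 CPM and 42 counts in all, spleens 0.518 to 3.07 CPM and 85 counts, and tumors 0.538 to 6.49 CPM and 131 counts. Its pooled rate in scaffolds was 32.1 times that in lungs (23.6 to 44.7), 12.3 times that in spleens (9.84 to 15.4) and 5.9 times that in tumors (4.92 to 7.13). The scaffold libraries were above all others for this gene too, but by a smaller factor than for Dcstamp.

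Atp6v0d2 reached 550.1, 749 and 1000.3 CPM in the lowest, median and highest scaffold, against 4.34 to 66.0 CPM in lungs, 0 to 2.52 CPM in spleens and 1.68 to 25.7 CPM in tumors. Its log2 difference was 5.38 ± 0.16 (SE) against lungs, 9.36 ± 0.22 against spleens and 6.99 ± 0.21 against tumors, with 12 libraries per tissue and 9 on each side of the tumor comparison. Against spleens this was the 4th highest difference of the 27656 genes, though it rests on 74 counts in all 12 spleens, 0 to 13 per library. Atp6v0d1, which encodes the d subunit that most cells use in the same place of the pump, was at 77.8 to 112 CPM in scaffolds and at 25.2 to 59.6 CPM across the other tissues. It passed the test as well, with log2 differences of 1.58 ± 0.09, 1.26 ± 0.09 and 1.56 ± 0.10 against lungs, spleens and tumors.

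Of the enzymes, Ctsk was at 2314, 3334 and 4408 CPM in the lowest, median and highest scaffold. Lungs had 7.43 to 37.9 CPM, spleens 3.02 to 12.6 CPM and tumors 12.3 to 78.5 CPM. The log2 difference was 7.75 ± 0.18 against lungs, 8.91 ± 0.20 against spleens and 6.41 ± 0.20 against tumors, which placed Ctsk 10th, 8th and 23rd among all genes. Acp5 was at 537 to 1059 CPM in scaffolds, with a median of 796 CPM. In spleens it was at 57.0 to 131 CPM, a range that met those of lungs (8.47 to 63.7 CPM) and tumors (16.7 to 72.8 CPM). Its log2 difference was 5.38 ± 0.11 against lungs but 3.03 ± 0.10 against spleens, and 4.51 ± 0.12 against tumors.

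Gpnmb was counted at 5572, 7637 and 9871 CPM in the lowest, median and highest scaffold library. No other tissue came near: lungs had 19.8 to 58.2 CPM, spleens 5.75 to 45.8 CPM and tumors 17.3 to 359 CPM. The log2 difference was 7.84 ± 0.19 against lungs, 8.60 ± 0.20 against spleens and 7.08 ± 0.22 against tumors, the 8th, 12th and 12th highest of all genes. Trem2 was at 176 to 338 CPM in scaffolds, 2.1 to 5.72 CPM in lungs, 0.419 to 2.68 CPM in spleens and 13.3 to 24.7 CPM in tumors. Its 4 tissues fell in the order scaffold, tumor, lung and spleen, and Trem2 was the member whose tumor libraries were all above the lungs as well.

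Tyrobp, Cd9 and Fabp5 had the smallest differences from lungs. Tyrobp, which many myeloid and natural killer cells use besides macrophages, was at 549 to 1496 CPM in scaffolds, 49.8 to 264 CPM in lungs, 111 to 470 CPM in spleens and 81.8 to 304 CPM in tumors. Its log2 difference was 3.20 ± 0.12, 1.99 ± 0.11 and 2.34 ± 0.13 against lungs, spleens and tumors. Fabp5 was at 249 to 655 CPM in scaffolds, 9.31 to 56.6 CPM in lungs, 7.96 to 20.8 CPM in spleens and 34.1 to 62.0 CPM in tumors, with log2 differences of 4.22 ± 0.13, 5.08 ± 0.13 and 3.25 ± 0.14. Cd9, which epithelial cells and platelets also carry, was at 365 to 786 CPM in scaffolds, 93.1 to 290 CPM in lungs, 26.2 to 156 CPM in spleens and 65.2 to 405 CPM in tumors. Cd9 differed by 1.83 ± 0.16 from lungs, 3.42 ± 0.17 from spleens and 1.58 ± 0.18 from tumors, and 4T1 tumors at 322 to 405 CPM overlapped the lower scaffolds. With TMM factors in place of library totals, tumors rather than lungs came next to scaffolds for Cd9, and those ranges overlapped as well. In GENCODE M1 the start of Cd9 overlaps Gm16749, a noncoding gene on the opposite strand, and whether counting used strand is not given in the sources used here.

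After the scaffold, tissues next to each other in the order of medians overlapped for every gene except Trem2, whose tumors stood above its lungs. Of tissues further apart in the order, the lungs lay wholly above the spleens for Atp6v0d2, and the tumors wholly above the spleens for Fabp5 and Trem2. The spleen followed the scaffold for Acp5 and Tyrobp, the lung for Atp6v0d2, Cd9 and Gpnmb, and the tumor for Ctsk, Dcstamp, Ocstamp, Trem2 and Fabp5.

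The same differences were present in mice without a tumor. Between control scaffolds and control lungs 10 of 10 genes were higher, beside 11.1% of all genes higher and 24.1% that passed in either direction, and between control scaffolds and control spleens 10 of 10, beside 12.8% and 25.3%. The median log2 difference of the members was 6.33 against lungs and 6.98 against spleens. Gpnmb was at 6407 to 7821 CPM in the 3 control scaffolds, 33.8 to 47.4 CPM in the 3 control lungs and 11.5 to 45.8 CPM in the 3 control spleens. Cd9 had the smallest difference from control lungs, with an adjusted p of 0.000116.

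Scaffolds held more macrophage transcripts than the other tissues, so the genes were also tested relative to 8 macrophage markers (Adgre1, Csf1r, Cd68, Mertk, Fcgr1, C1qa, C1qb and C1qc), with their geometric mean in each library in place of the library scaling. On this scale the median of all genes was -2.69 against lungs, -1.09 against spleens and -0.74 against tumors, because the marker level itself was higher in scaffolds. Against lungs 8 of 10 genes still were higher, beside 1.22% of all genes, against spleens 9 of 10, beside 6.04%, and against tumors 9 of 10, beside 4.09%. Gpnmb had 29.8 times more counts per macrophage marker in scaffolds than in lungs, 152 times more than in spleens and 67.2 times more than in tumors, and Ctsk had 28.0, 189 and 42.7 times more. Atp6v0d2 had 5.36, 259 and 63.9 times more, and Trem2 10.6, 71.4 and 7.05 times more. The spleen values of these 2 rest on few counts, 74 for Atp6v0d2 and 80 for Trem2 over the 12 spleens.

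Tyrobp and Cd9 were the exceptions on this scale. Tyrobp differed by 0.25 ± 0.11 from lungs and 0.63 ± 0.11 from spleens on the log2 scale, under the fold of 2, and by 1.34 ± 0.13 from tumors, which passed. Cd9 was lower in scaffolds than in lungs, by a log2 difference of -1.14 ± 0.16, did not pass against tumors at 0.56 ± 0.19, and was higher than in spleens at 2.06 ± 0.17. Atp6v0d1 differed from Atp6v0d2 here in direction, at -1.37 ± 0.10 against lungs, and did not pass against spleens, at -0.09 ± 0.10, or tumors, at 0.54 ± 0.12. What other cell types add to these ratios was not tested. Fibroblast markers, for instance, summed to 8470 to 17738 CPM in scaffolds, 574 to 1902 CPM in lungs, 291 to 526 CPM in spleens and 955 to 9064 CPM in tumors, with none of the 8 at 0.

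**Figure D2:**
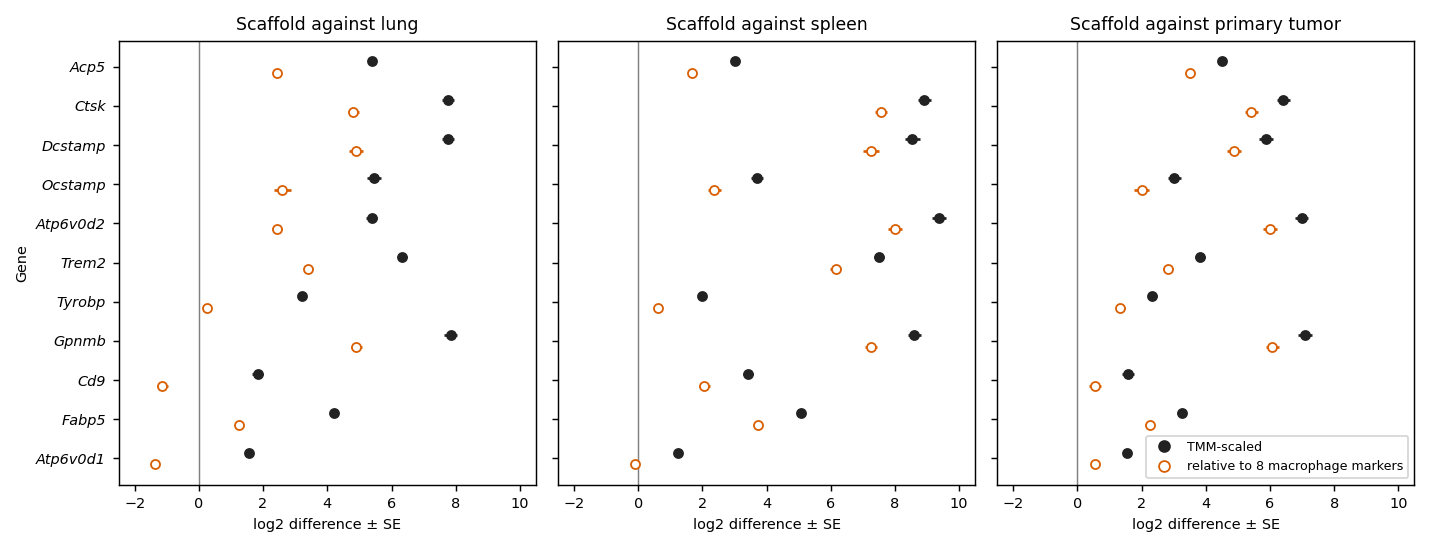
Log2 difference with its standard error between scaffolds and each other tissue for the 10 genes and Atp6v0d1, scaled by TMM (filled) or relative to 8 macrophage markers (open). The open points lie left of the filled ones throughout, and those of Ctsk, Dcstamp and Gpnmb stay above 4 in all 3 panels while those of Tyrobp, Cd9 and Atp6v0d1 lie near or under 0 against lungs.

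Other genes of these pathways were counted in lists that do not contain the 10. These lists too were chosen with earlier results of these data known. Of all genes tested, 16.1% were higher and 15% lower in scaffolds against lungs, 18.4% and 15.2% against spleens, and 14.6% and 10.8% against tumors. Of 17 subunits of the vacuolar proton pump, 16 were higher in scaffolds than in lungs, 15 than in spleens and 16 than in tumors, with 0 lower, at median log2 differences of 2.06, 2.06 and 1.89. Atp6v1a, the catalytic subunit, was at a mean of 1707 CPM in scaffolds, 241 CPM in lungs and 114 CPM in spleens, log2 differences of 3.04 ± 0.11 and 3.96 ± 0.12. Atp6v1c1, another subunit of the soluble domain, had log2 differences of 2.94 ± 0.08 and 2.87 ± 0.08.

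Of 25 lysosomal proteins, 19 were higher in scaffolds than in lungs, 23 than in spleens and 19 than in tumors, and none was lower. The proteases Ctsl and Ctsb led against lungs, with log2 differences of 4.39 ± 0.12 and 3.94 ± 0.09, and Ctsl and Gla, an alpha-galactosidase, led against spleens, with 5.40 ± 0.12 and 4.19 ± 0.11. Of 15 genes of lipid-associated macrophages, 13 were higher than in lungs, 15 than in spleens and 14 than in tumors. Mmp12, the macrophage elastase, was at a mean of 2150 CPM in scaffolds, 8.84 CPM in lungs and 5.23 CPM in spleens, and its log2 differences of 8.17 ± 0.23 and 8.78 ± 0.24 were above that of Gpnmb. Spp1, osteopontin, followed at 5.02 ± 0.16 and 6.78 ± 0.18.

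The list of the RANK pathway, which drives osteoclast formation, was more mixed. Of its 15 genes, 10 were higher and 1 was lower against lungs, 10 and 1 against spleens, and 11 and 1 against tumors. Oscar, a receptor that signals through an adaptor of the same kind as Tyrobp, was at a mean of 6.62 CPM in scaffolds. It had 480 counts in the 12 scaffolds and 1 count each over all lungs, all spleens and all tumors, so its pooled rate was 466 times that in lungs (95% interval 83.3 to 18456) and 361 times that in spleens (64.4 to 14272). Tnfrsf11a, the receptor RANK, differed from lungs by 3.09 ± 0.10, and Mitf, a transcription factor of osteoclasts and of lysosomal genes, from spleens by 3.90 ± 0.08. Car2, a carbonic anhydrase that osteoclasts use to make acid and that red blood cell precursors also hold, was lower in scaffolds, by -1.32 ± 0.23 against lungs and -3.64 ± 0.25 against spleens.

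Fusion factors other than the members were less uniform. Of 14, 7 were higher and 1 lower against lungs, 6 and 0 against spleens, and 4 and 1 against tumors. Ccl2, a chemokine that draws monocytes, and Mmp9, a gelatinase, led, with log2 differences of 4.98 ± 0.30 and 4.27 ± 0.18 against lungs and 4.96 ± 0.33 and 4.13 ± 0.17 against spleens. Cdh1, E-cadherin, was lower in scaffolds than in lungs by -4.60 ± 0.19, in a comparison where 4 of 9 epithelial markers were lower and 2 higher. Of 13 signalling partners of Trem2 and Tyrobp, 4 were higher and 0 lower against lungs, 2 higher and 4 lower against spleens, and 7 higher and 0 lower against tumors. The 2 of 13 higher against spleens were near the share of all genes, 18.4%. Clec5a, another receptor that uses Tyrobp, differed by 2.52 ± 0.14 from lungs and 2.14 ± 0.14 from spleens, and Hcst, an adaptor encoded beside Tyrobp, by 2.03 ± 0.13 from lungs. Trem1 differed from spleens by 1.20 ± 0.26. Treml4, which is also in the list of red pulp markers, and Pilrb1 were lower than in spleens, by -3.01 ± 0.17 and -2.59 ± 0.18.

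**Figure D3:**
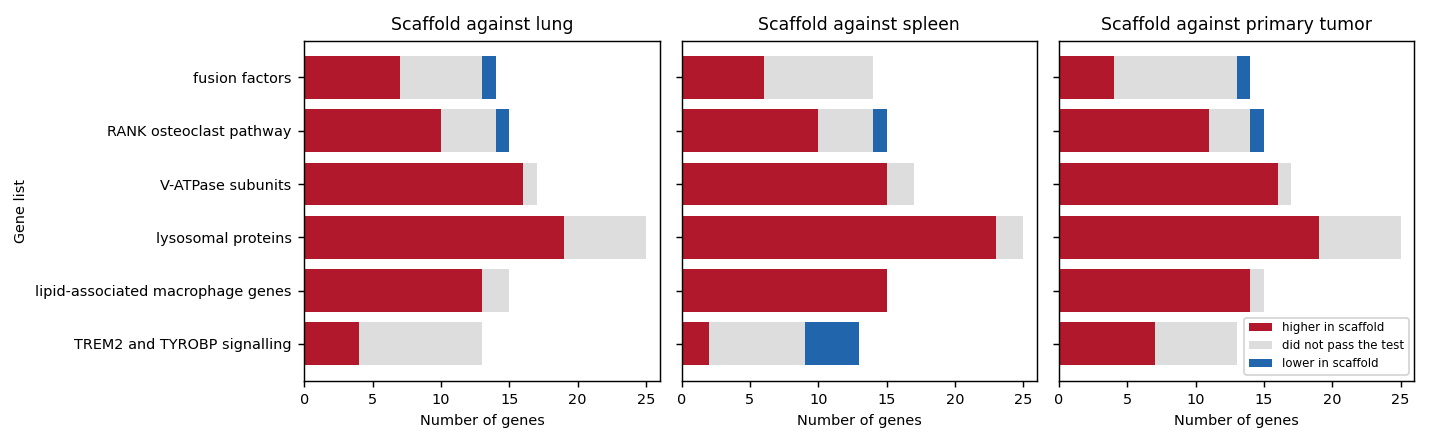
Number of genes of each list that were higher, lower or did not pass the test in scaffolds against lungs, spleens and primary tumors, with list lengths from 13 to 25 genes. The bars of pump subunits, lysosomal proteins and lipid-associated macrophage genes are almost wholly higher, and TREM2 and TYROBP signalling against spleens has more genes lower than higher.

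The genes whose group means over the 15 groups were most like each member were sought among 12047 genes with a mean of at least 5 CPM over the groups, by Pearson correlation of log2(CPM + 1). These correlations rest on the wide step between the 4 scaffold groups and the rest, and are given as a description. Dcstamp was most like Atp6v1c1 (r = 0.994), Prss46 and Slc9b2, and Atp6v0d2 most like Dhrs3 (r = 0.985), Mitf and Atp6v1a. These 2 thus had a pump subunit among their 3 nearest, but Ocstamp, the other fusion gene, had none. With Spearman correlation Dcstamp had none either, its nearest being Cd320, Egr2 and Vdac2, while Atp6v0d2 kept Atp6v1a. Ctsk was most like Mmp19 (r = 0.993), Galc and Fbln7. By Spearman correlation its nearest were instead Apod, Mfap5 and Lum, the last of which is in the list of fibroblast markers. Ocstamp was nearest to Col11a1 (r = 0.968), Gm2a and Ctsz, and Acp5 to Gdf3 (r = 0.963), Prss50 and Cyba. Trem2 was nearest to Lgals3 (r = 0.985), the gene of galectin-3, then Lhfpl2 and Bdh2, and Gpnmb to Serpinb9b (r = 0.982), Rnf128 and Atp6v1c1. Tyrobp was nearest to Ostf1 (r = 0.955), Cd300c2 and Clec4a2, and Cd9 to Lamp1 (r = 0.976), Sptssa and Cdc42.

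Fabp5 was most like Gm6166 (r = 0.991), before Gabarap and Mfsd11. GENCODE M1 lists Gm6166 as a pseudogene, and it holds 38.7% of the 938 windows of 50 bases in the Fabp5 mRNA, though none in its last 300 bases. It was at 15.7 to 74.3 CPM in scaffolds and 0 to 6.22 CPM elsewhere, so reads of Fabp5 and Gm6166 may not be fully separated. Among the members themselves, Ctsk and Dcstamp were the most alike over the 15 groups (r = 0.985) and Acp5 and Cd9 the least (r = 0.44).

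Few of the 10 genes passed between scaffolds of tumor-bearing and control mice. Within a tissue the test asked for an adjusted p under 0.10 and a fold over 2. In mice with 67NR tumors 0 of 10 genes passed in scaffolds by edgeR, where 0 of 22156 genes passed at all and 2 of the 10 had an unadjusted p under 0.05. In mice with 4T1 tumors 0 of 10 passed, beside 0.0226% of all genes (0.0135% higher and 0.00903% lower), and 3 of the 10 had an unadjusted p under 0.05. The share of all genes at an unadjusted p under 0.05 was not counted, here or below. Such member counts therefore cannot be set beside the shares that passed. In mice with 4T07 tumors 2 of 10 passed, both lower, beside 7.44% of all genes, 3.85% higher and 3.59% lower. Over these 3 comparisons DESeq2 called 2 as well.

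Those 2 were Tyrobp and Fabp5. Tyrobp was at 1496, 1467 and 1440.2 CPM in control scaffolds, 1410.1, 1457 and 1187 CPM with 67NR, 591, 549 and 556 CPM with 4T07, and 1042, 781 and 1161 CPM with 4T1. The 4T07 scaffolds were below all others, with a log2 difference of -1.52 ± 0.19 against controls (adjusted p = 0.000616) and -1.33 ± 0.19 against 67NR (adjusted p = 0.00107). The 4T1 scaffolds lay between, and their difference from 4T07 scaffolds, 0.86 ± 0.19 with an adjusted p of 0.0534, stayed under the fold of 2. Fabp5 was at 419, 655 and 606 CPM in control scaffolds and 272, 302 and 249 CPM with 4T07, a log2 difference of -1.16 ± 0.22 (adjusted p = 0.00331), and no library of either group overlapped the other. Over the same scaffolds 0 of 8 macrophage markers passed, with sums of 3084 to 3282 CPM in controls and 2938 to 3538 CPM with 4T07, while 4 of 6 adipocyte markers fell and 8 of 8 neutrophil markers rose, the sum of the latter going from 266 to 1728 CPM in controls to 1950 to 8633 CPM. The part of other cell types in the Tyrobp and Fabp5 differences was not tested.

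Dcstamp went the other way. It was at 51.6, 65.6 and 81.1 CPM in control scaffolds, 44.7, 53.6 and 43.4 CPM with 67NR, 107, 142 and 101 CPM with 4T07, and 52.7, 100.0 and 67.3 CPM with 4T1. The 4T07 scaffolds were above all others, and the difference from 67NR scaffolds passed the test at 1.24 ± 0.22 (adjusted p = 0.00265), the 1 gene of the 10 that was higher in that comparison, beside 2.82% of all genes. Against controls the difference was 0.69 ± 0.21, with an adjusted p of 0.0447 but a fold under 2. Acp5 and Cd9 were in the same position on the lower side with 4T07, at -0.81 ± 0.18 and -0.67 ± 0.20 with adjusted p-values of 0.00854 and 0.0413. Between 4T1 and 67NR scaffolds 0 of 10 genes passed by edgeR, beside 0.0226% of all genes (0.00903% higher, 0.0135% lower), with 3 of the 10 at an unadjusted p under 0.05. Between 4T1 and 4T07 scaffolds 0 of 10 passed by edgeR, beside 1% of all genes (0.636% higher, 0.366% lower). Of the 10, 5 had an unadjusted p under 0.05, a looser threshold for which no share of all genes was counted. Over the 3 line comparisons in scaffolds edgeR called 2 members and DESeq2 3.

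In lungs more of the members passed, in both directions and mostly with 4T07 tumors. With 4T07 tumors 6 of 10 passed, 2 higher and 4 lower, beside 29% of all lung genes, 15.3% higher and 13.7% lower. With 67NR tumors 2 of 10 passed, both lower, beside 4.25% of all genes, 2.52% higher and 1.73% lower. With 4T1 tumors 1 was higher and 1 lower, beside 4.61%, of which 3.56% of all genes were higher and 1.05% lower. Between lines 6 of 10 passed for 4T07 against 67NR, beside 29.7%, 2 of 10 for 4T1 against 67NR, beside 5.03%, and 3 of 10 for 4T1 against 4T07, beside 23.5%. The 4T07 lungs also differed from control lungs in marker sums. B cell markers were at 271 to 350 CPM there, 72.0 to 95.9 CPM in control lungs and 265 to 354 CPM in 4T07 spleens. Platelet markers, in the same order, were at 975 to 1443, 70.9 to 107 and 1576 to 2188 CPM. Epithelial markers were at 42.9 to 82.7, 190 to 219 and 7.16 to 12.8 CPM. The part of these cell types in the calls was not tested.

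Atp6v0d2 had the widest range in lungs. It was at 60.1, 66.0 and 38.5 CPM in control lungs, 23.0, 28.4 and 17.1 CPM with 67NR, 5.93, 4.34 and 7.38 CPM with 4T07, and 26.7, 22.9 and 38.4 CPM with 4T1. The 4T07 lungs were below every other lung, at -3.16 ± 0.28 against controls (adjusted p = 1.67e-08), and the 67NR lungs were also lower than controls, at -1.37 ± 0.24 (adjusted p = 0.0021). Fabp5 fell in 4T07 lungs too, from 49.9, 56.6 and 42.1 CPM in controls to 9.31, 10.9 and 12.4 CPM, a log2 difference of -2.12 ± 0.20. Ctsk fell from 24.9, 37.9 and 17.5 CPM to 9.74, 7.43 and 8.68 CPM, at -1.57 ± 0.25, and Cd9 from 267, 290 and 217 CPM to 101, 93.1 and 114 CPM, at -1.27 ± 0.18. None of these 4 genes had a 4T07 lung library within the control range. Of 8 alveolar macrophage markers 5 were lower and 1 was higher in the same lungs, with a median log2 difference of -1.79 and a sum of 248 to 295 CPM against 220 to 390 CPM in controls, and 5 of 8 fibroblast markers were lower with 0 higher, while of 8 tested epithelial markers 4 were lower and 2 higher. Their part in the falls was not tested.

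Acp5 rose in 4T07 lungs, to 63.7, 63.0 and 44.7 CPM from 20.2, 26.5 and 15.2 CPM, a log2 difference of 1.53 ± 0.20 (adjusted p = 2.86e-06). Lungs with 67NR stayed at 15.8 to 16.6 CPM and those with 4T1 at 8.47 to 13.4 CPM, so that the 4T07 lungs were above every other lung. In the same lungs 6 of 6 red pulp macrophage markers rose, from a sum of 196 to 255 CPM to one of 800 to 1018 CPM, and 8 of 8 neutrophil markers rose, from 238 to 306 CPM to 23719.5 to 28349 CPM. Of the 8 general macrophage markers 3 rose and 0 fell, with the sum going from 323 to 344 CPM to 622 to 901 CPM, and 5 of 5 platelet and 4 of 4 B cell markers rose. Their part in the rise of Acp5 was not tested. Ocstamp passed with 2 counts over the 3 control lungs, 17 over the 4T07 lungs and 16 over the 4T1 lungs. Its pooled rate was 10.47 times that in controls with 4T07 (2.49 to 93.4) and 7.0 times with 4T1 (1.64 to 62.7). The 4T1 call was lost without any of 4 libraries, at adjusted p-values up to 0.248 without the 4T1 lung 2, and DESeq2 gave no adjusted p for it.

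Tyrobp was lowest in the lungs of mice with 67NR tumors. It was at 134, 146 and 86.1 CPM in control lungs, 52.9, 64.0 and 49.8 CPM with 67NR, 166, 209 and 166 CPM with 4T07, and 264, 249 and 179 CPM with 4T1. The 67NR lungs were below all others, at -1.24 ± 0.20 against controls (adjusted p = 0.00144), and the 4T1 lungs differed from 67NR lungs by 2.17 ± 0.20. The 4T07 and 4T1 lungs overlapped. Between 4T1 and 67NR lungs 8 of 8 neutrophil markers were higher as well, with sums of 244 to 279 CPM with 67NR and 11677 to 27839.6 CPM with 4T1, and their part in the Tyrobp difference was not tested. Ctsk was lower in 4T1 lungs than in control lungs, at -1.14 ± 0.24, but without the control lung 2 the difference was -0.82 and its fold fell under 2. Trem2, Gpnmb and Dcstamp passed in no lung comparison with controls.

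**Figure D4:**
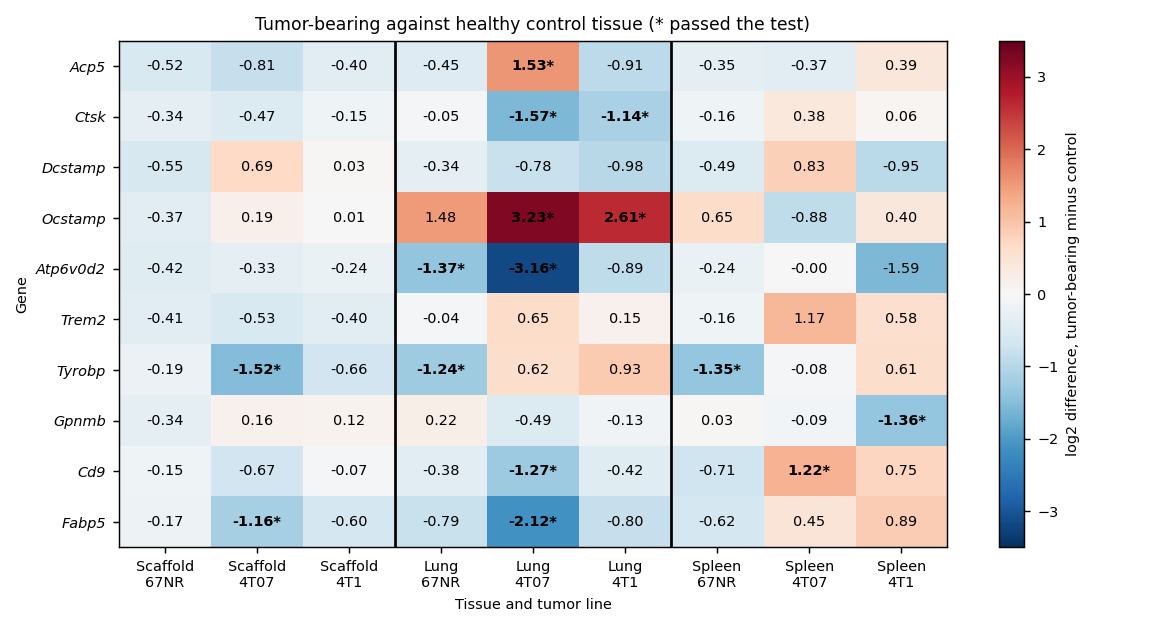
Log2 difference between tumor-bearing and control tissue for each of the 10 genes in scaffolds, lungs and spleens by tumor line, with red for higher, blue for lower and a star where the test passed. Stars are 2 in the scaffold columns, 10 in the lung columns and 3 in the spleen columns, and the darkest cells are Atp6v0d2 and Ocstamp in 4T07 lungs.

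In spleens 1 of 10 genes passed with each line, beside 2.26% of all genes with 67NR (1.29% higher, 0.97% lower), 18.6% with 4T07 (8.26% higher, 10.3% lower) and 19.9% with 4T1 (9.84% higher, 10% lower). Tyrobp was lower with 67NR, at 111, 155 and 148 CPM against 368, 361 and 253 CPM in controls, a log2 difference of -1.35 ± 0.22 (adjusted p = 0.00914), as it was in 67NR lungs. The 4T07 spleens were at 313, 285 and 232 CPM and the 4T1 spleens at 467, 313 and 470 CPM, both above the 67NR spleens. Cd9 passed with 4T07, at 156, 98.4 and 31.8 CPM against 57.3, 51.2 and 28.0 CPM, but the libraries overlapped and the call was lost without the 4T07 spleen 1 (0.74, adjusted p = 0.191) or the control spleen 3 (0.95, adjusted p = 0.108). In these spleens 4 of 5 platelet and megakaryocyte markers rose, from a sum of 315 to 522 CPM to one of 1576 to 2188 CPM, and 8 of 8 neutrophil markers, from 971 to 1714 CPM to 24947 to 30566 CPM, and their part in the Cd9 difference was not tested. Gpnmb passed with 4T1, at 5.75, 12.5 and 8.45 CPM against 45.8, 11.5 and 23.7 CPM, but the libraries overlapped and the call was lost without the control spleen 1 (-0.72, adjusted p = 0.144).

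Between lines in spleens 5 of 10 genes passed for 4T07 against 67NR, beside 14.7% of all genes, and 4 of 10 for 4T1 against 67NR, beside 20.7%. Tyrobp, Cd9 and Fabp5 were higher in both, with log2 differences of 1.27 ± 0.22, 1.93 ± 0.40 and 1.07 ± 0.26 for 4T07 and 1.96 ± 0.22, 1.46 ± 0.40 and 1.51 ± 0.26 for 4T1, and these comparisons share the 67NR spleens. Trem2 was higher and Ocstamp lower with 4T07, on 2 to 13 counts per library for Trem2. The Trem2 call was lost in 4 of 6 omissions of a library, with an adjusted p of 0.24 without the 67NR spleen 1. That of Ocstamp was lost in 2 of 6, with an adjusted p of 0.117 without the 4T07 spleen 2. The Fabp5 call with 4T07 was lost in 1 of 6 omissions of a library, where its difference of 0.82 was under the fold of 2. Between 4T1 and 4T07 spleens 0 of 10 passed by edgeR, beside 2.33% of all genes. Of the 10, 5 had an unadjusted p under 0.05, for which no share of all genes was counted. Over the 3 line comparisons in spleens edgeR and DESeq2 each called 9 members.

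The primary tumors differed by line. With the threshold of 0.05 used there, 6 of 10 genes passed for 4T07 against 67NR (5 higher), beside 28.9% of all genes, 4 of 10 for 4T1 against 67NR (all higher), beside 20.7%, and 5 of 10 for 4T1 against 4T07 (3 higher), beside 8.61%.

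Gpnmb marked the 4T07 tumors, at 325, 359 and 279 CPM, against 45.4, 18.5 and 31.6 CPM in 67NR tumors and 23.0, 27.7 and 17.3 CPM in 4T1 tumors. It was higher in 4T07 than in 67NR tumors by 3.09 ± 0.25 (adjusted p = 2.76e-07), and lower in 4T1 than in 4T07 tumors by -3.77 ± 0.26 (adjusted p = 2.4e-07). The highest 4T07 tumor was below the lowest scaffold at 5572 CPM. Acp5 differed in level between all 3 lines, at 19.1, 19.0 and 16.7 CPM in 67NR, 35.1, 26.9 and 33.0 CPM in 4T07 and 67.3, 72.8 and 59.1 CPM in 4T1 tumors, with no overlap between any pair. Its difference between 4T1 and 67NR was 1.66 ± 0.18 and between 4T1 and 4T07 1.12 ± 0.17, while that between 4T07 and 67NR, 0.54 ± 0.18, stayed under the fold of 2. Ctsk was at 16.4, 12.3 and 18.3 CPM in 67NR, 70.6, 34.7 and 41.2 CPM in 4T07 and 65.8, 78.5 and 74.7 CPM in 4T1 tumors. It passed for both lines against 67NR, at 1.39 ± 0.25 and 2.02 ± 0.25, and without the 4T07 tumor 1 the former fell to 0.98 and under the fold of 2. Fibroblast markers summed to 955 to 1167 CPM in 67NR, 4886 to 7200 CPM in 4T07 and 5916 to 9064 CPM in 4T1 tumors. Their part in the Ctsk differences was not tested.

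Atp6v0d2 was at 25.7, 10.7 and 10.7 CPM in 4T07 tumors, above 5.64, 1.68 and 1.69 CPM in 67NR tumors by 2.13 ± 0.47 (adjusted p = 0.00204). The 4T1 tumors, at 3.66, 5.94 and 6.91 CPM, were lower than 4T07 tumors by -1.47 ± 0.42, and this call was lost without the 4T07 tumor 1 (-0.92, adjusted p = 0.193) or 2 of the 3 4T1 tumors. Dcstamp and Ocstamp were higher in both lines than in 67NR tumors, where they had 4 and 9 counts over 3 libraries. The pooled rate of Dcstamp was 7.14 times that of 67NR in 4T07 (2.57 to 27.6) and 6.51 times in 4T1 tumors (2.33 to 25.2), and that of Ocstamp 5.32 times (2.63 to 12.2) and 4.82 times (2.38 to 11.1). The Dcstamp calls were lost without the 67NR tumor 1, and the adjusted p was 0.0527 for 4T07 without the 4T07 tumor 1 and 0.113 for 4T1 without the 4T1 tumor 2, and for Ocstamp in 4T1 it was 0.0602 without the 4T1 tumor 3. Tyrobp was lower in 4T07 tumors, at 138, 114 and 81.8 CPM, than in 67NR tumors at 251, 304 and 282 CPM, by -1.58 ± 0.21, and the 4T1 tumors at 284, 259 and 181 CPM were above 4T07 by 1.16 ± 0.21, which fell just under the fold of 2 without the 4T07 tumor 3. Cd9 was higher in 4T1 tumors, at 375, 405 and 322 CPM, than in 4T07 tumors at 112, 173 and 65.2 CPM, by 1.70 ± 0.26, in a comparison where 5 of 8 tested epithelial markers rose, from a sum of 129 to 185 CPM to one of 1019 to 1134 CPM. The part of epithelial or carcinoma cells in the Cd9 level was not tested. Trem2 and Fabp5 passed in no comparison of tumors.

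**Figure D5:**
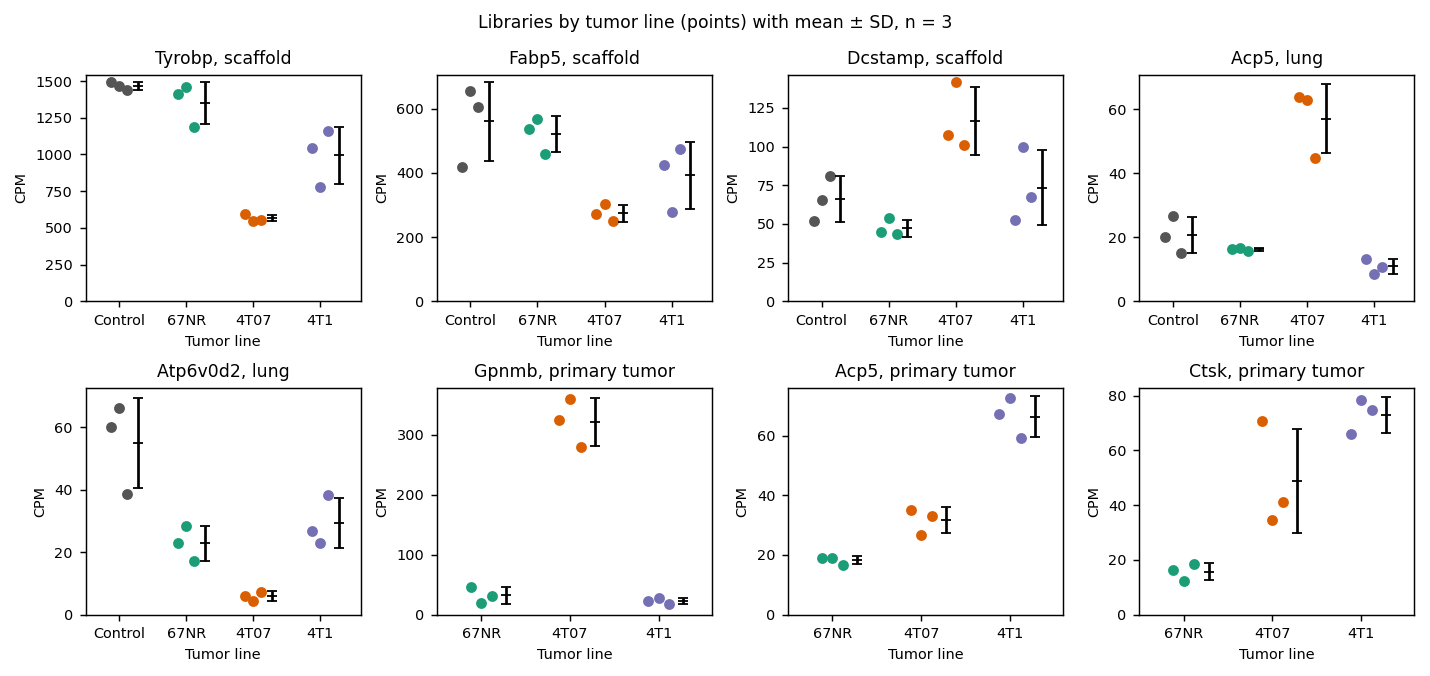
CPM in each library by tumor line, with the mean and SD of 3 libraries beside the points, for genes that passed in scaffolds (Tyrobp, Fabp5, Dcstamp), lungs (Acp5, Atp6v0d2) and primary tumors (Gpnmb, Acp5, Ctsk), on axes that start at 0. The 4T07 points stand apart from the other lines in the panels of Tyrobp in scaffolds, Acp5 and Atp6v0d2 in lungs and Gpnmb in tumors. For Dcstamp in scaffolds the lowest 4T07 point, at 101 CPM, nearly meets the highest 4T1 point, at 100.0 CPM.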

How the data were processed

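The authors sequenced 3' QuantSeq libraries with molecular identifiers. The deposited table holds raw gene counts per library, made with Trim Galore 0.5.0, STAR 2.6.0 and featureCounts according to the submitters' processing notes. The build, annotation, strand setting, handling of multi-mapping reads and collapsing of molecular identifiers are not given in the sources used here. The 10 genes, the gene lists and the tests were chosen with earlier results of these data known. Counts were tested with edgeR 4.0.16 (R 4.3.3, TMM, quasi-likelihood, Benjamini-Hochberg adjustment) on genes with more than 10 counts in all, in 1 fit of 45 libraries for tissues and responses between tissues, and in 1 fit per tissue for lines. Thresholds were an adjusted p of 0.05 between tissues and tumors and 0.1 within scaffolds, lungs and spleens, with a fold over 2, and 0.1 with no fold for responses between tissues. Pooled count rates have exact 95% Poisson intervals, which cover counting error only. Nothing in the labels says how replicate mice relate, so p-values measure the spread between these samples. Besides the members, the 2 genes of each pathway list with the largest difference in each direction were named, among those that passed against lungs or spleens with a mean of at least 5 CPM in the higher tissue, as were Atp6v0d1 and the 3 genes most like each member. Alternatives were DESeq2 1.42.0, its size factors, library totals, other filters, only the groups compared, and leaving out each library.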

Additional observations from a re-analysis of the deposited data

Results flagged for a closer look

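The response to a tumor, meaning the log2 difference between tumor-bearing and control mice, was compared between tissues by an interaction term in edgeR, and 26 differences between tissues had an adjusted p under 0.10. Of all genes, 18.7% (scaffold against lung), 15.1% (scaffold against spleen) and 20.6% (lung against spleen) passed with 4T07, and 0.951%, 14.2% and 15.5% with 4T1. Comparisons share libraries. With 67NR 0 of the 10 genes passed in any of the 3 pairs of tissues, where 2, 0 and 13 of all genes passed, and 2, 1 and 0 of the 10 had an unadjusted p under 0.05. The 4T07 lungs also differed from control lungs in marker sums. Platelet markers were at 975 to 1443 CPM in 4T07 lungs and 70.9 to 107 CPM in control lungs. Red pulp macrophage markers, in the same order, were at 800 to 1018 and 196 to 255 CPM. Epithelial markers were at 42.9 to 82.7 and 190 to 219 CPM. In bulk RNA a changed cell make-up cannot be told apart from a changed level per cell. The part of cell make-up in the 4T07 responses was not tested.

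Between scaffold and lung with 4T07, the response was higher in the scaffold for Atp6v0d2 (2.94 ± 0.42), Ctsk (1.21 ± 0.42) and Fabp5 (1.07 ± 0.33), whose lung levels fell. It was lower for Ocstamp (-2.90 ± 0.83), Acp5 (-2.23 ± 0.26), Tyrobp (-2.03 ± 0.31) and Trem2 (-1.07 ± 0.41). The value of Trem2 had an adjusted p of 0.0757 and was lost without any of 7 libraries, and that of Ctsk (adjusted p = 0.0445) without any of 3. With 4T1 the response of Tyrobp was lower in the scaffold (-1.56 ± 0.31, adjusted p = 0.00235).

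Between scaffold and spleen with 4T07, the response was lower in the scaffold for Cd9 (-1.91 ± 0.44), Trem2 (-1.69 ± 0.54), Fabp5 (-1.62 ± 0.34) and Tyrobp (-1.45 ± 0.31). With 4T1 it was lower for Fabp5 (-1.46 ± 0.34), Tyrobp (-1.23 ± 0.31) and Acp5 (-0.76 ± 0.25) and higher for Gpnmb (1.53 ± 0.45). Without the control spleen 1 the value of Gpnmb was 0.87 with an adjusted p of 0.211. The value of Acp5 with 4T1 was lost in 3 of 12 omissions of a library (adjusted p up to 0.143), and that of Trem2 with 4T07 in 2 of 12 (up to 0.106).

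Between lung and spleen with 4T07, the response was higher in the lung for Ocstamp (3.97 ± 0.97) and Acp5 (1.78 ± 0.27), and lower for Atp6v0d2 (-3.27 ± 0.70), Fabp5 (-2.70 ± 0.36), Cd9 (-2.61 ± 0.45) and Ctsk (-2.07 ± 0.49). With 4T1 it was lower for Fabp5 (-1.69 ± 0.34), Acp5 (-1.30 ± 0.27) and Cd9 (-1.17 ± 0.44), and higher for Gpnmb (1.24 ± 0.46). The last pair had adjusted p-values of 0.0833 and 0.0769. The value of Cd9 was lost in 8 of 12 omissions of a library (adjusted p up to 0.298), and that of Gpnmb in 7 of 12, with an adjusted p of 0.457 and a difference of 0.58 without the control spleen 1.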

How the results depend on the processing

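No paired analysis was possible because the labels do not link the tissues of a mouse, and replicate numbers carry no batch. No reported call changed direction under any alternative, and all counts of member calls stayed within 1.5 times of those reported. Leaving out 1 library each gave 2 to 3 member calls between lines in scaffolds. Library totals ended 6 calls of single genes and DESeq2 2 (Ocstamp in 4T1 lungs, with no adjusted p, and Trem2 between 4T07 and 67NR spleens). The library totals also ended those of Trem2 (1.07) and Fabp5 (0.81) between 4T07 and 67NR spleens. Of the 30 genes most like a member by Pearson correlation, 7 were shared with Spearman correlation. Counts over all genes moved by more than 1.5 times where few passed. For 4T1 against control scaffolds 5 became 10 with DESeq2 size factors, 64 with DESeq2, 323 with no filter and 0 with only the groups compared. For 4T1 against 67NR scaffolds 5 became 48, 202 and 10 under the last 3 and 0 under library totals or filterByExpr. For 4T1 against 4T07 scaffolds 222 became 699 with no filter and 13 with only the groups compared. For 67NR scaffolds 0 became 1 with DESeq2 or only the groups compared and 42 with no filter. With no filter 478 became 762 in 67NR spleens and 493 became 767 between 4T1 and 4T07 spleens. For the 67NR response, 2 (scaffold against lung) became 25 with DESeq2, 260 with no filter and 1 with only the groups compared, 0 (scaffold against spleen) became 197, 221 and, with filterByExpr, 11, and 13 (lung against spleen) became 214, 333, 42 with filterByExpr and 2 with library totals. For the 4T1 response between scaffold and lung 263 became 530 with no filter. Library totals moved the share of calls that were higher by over 10 points, from 51.8% to 69.7% in 4T07 scaffolds, 46.1% to 34.4% and 50.5% to 40.2% in control scaffolds against control lungs and spleens, 59.3% to 72.0% in 67NR lungs, 57.1% to 73.0%, 44.5% to 31.1% and 49.5% to 29.1% in 67NR, 4T07 and 4T1 spleens, 49.7% to 23.8%, 44.2% to 24.0% and 35.9% to 23.3% between 4T1 and 67NR, 4T07 and 67NR, and 4T1 and 4T07 spleens, 64.3% to 50.2% between 4T1 and 67NR lungs, 48.1% to 58.5% between 4T07 and 67NR scaffolds, and 59.2% to 73.0% and 56.1% to 69.1% for 4T07 and 4T1 against 67NR tumors. For responses they moved it from 52.7% to 79.1% and 52.0% to 79.3% (scaffold against spleen, 4T07 and 4T1) and from 51.7% to 67.0% and 51.3% to 74.0% (lung against spleen). Comparisons with 5 or fewer calls are left out of these shares. They moved the median of all genes as well, from 0.07 to -0.11 for scaffolds against lungs and from -0.07 to -0.41 between 4T1 and 67NR spleens. Depth limits Dcstamp in lungs and spleens, where libraries held 0 to 5 counts, and Ocstamp in lungs, with 0 to 8, and spleens, with 3 to 12. In spleens it also limits Atp6v0d2, with 0 to 13 counts per library, and Trem2, with 2 to 13. Differences and responses of these genes that involve spleens thus rest on few counts.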

Other observations

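The cell type marker lists give the setting of the 10 genes. The shares of all genes higher and lower in the same comparisons are those given with the pathway lists. Against lungs, scaffolds had 7 of 8 macrophage, 5 of 8 fibroblast, 6 of 6 adipocyte, 5 of 5 skeletal muscle and 2 of 6 red pulp macrophage markers higher, and 5 of 8 alveolar macrophage, 4 of 9 epithelial and keratinocyte, 3 of 8 neutrophil, 3 of 5 platelet and 3 of 4 B cell markers lower. Of 5 markers of bone-forming cells, 4 were tested, with 1 higher and 1 lower. Against spleens, 8 of 8 fibroblast, 6 of 6 adipocyte, 5 of 5 skeletal muscle, 7 of 9 epithelial and 4 of 8 macrophage markers were higher, 4 of 8 alveolar macrophage markers were higher and 4 lower, and 6 of 6 red pulp, 7 of 8 neutrophil, 4 of 5 platelet and 4 of 4 B cell markers were lower. Against tumors, 7 of 8 fibroblast, 4 of 8 macrophage, 4 of 8 neutrophil, 5 of 8 alveolar macrophage, 4 of 6 red pulp and 3 of 5 skeletal muscle markers were higher, 6 of 9 epithelial and 2 of 4 tested bone-forming markers were lower, and 0 of 6 adipocyte and 0 of 4 B cell markers passed by edgeR.

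Within lungs with 4T07 tumors, 9 of 13 genes of TREM2 and TYROBP signalling rose and 0 fell, with a median log2 difference of 1.62, and 5 of 13 rose with 4T1, with a median of 0.87. Of all lung genes 15.3% rose and 13.7% fell with 4T07, and 3.56% rose and 1.05% fell with 4T1. Trem2 itself did not pass in either, at 0.65 ± 0.36 and 0.15 ± 0.36. Neutrophil marker sums were above those of control lungs with both lines, and B cell and red pulp macrophage sums with 4T07. The part of these cell types in the rise of the list was not tested. In the 4T07 scaffolds 1 of the 13 rose and 2 fell, beside 3.85% and 3.59% of all genes.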
